A study of Mus musculus with 12 samples.

Results

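Heat shock of wild-type mouse embryonic stem cells was measured by ribosome profiling as 1 comparison of this series. Every library labelled wild type and either unheated (WT noHS) or heated (WT HS) was taken, which gave 4 of the 12 libraries, 2 per group. All 4 came from V6.5 cells, a mouse embryonic stem cell line, carrying no Mettl14 deletion, and were grown in medium with LIF, a GSK3 inhibitor and a MEK1 inhibitor. The WT HS dishes were held at 42 °C for 30 min, with a water bath as the heat source, and were collected without a recovery period, and the WT noHS dishes were not heated. Wild-type and knockout cells were gifts from 1 laboratory, and whether each genotype is 1 clone is not given in the sources used here. Cells of both groups were washed and lysed in cycloheximide, which holds ribosomes on mRNA. The series' design calls the 2 libraries of a group biological replicates. The spread behind each edgeR p-value is that between such libraries, shared fully or in part over the transcripts tested. It is not the spread of 1 transcript alone.

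A translating ribosome covers a short stretch of mRNA and protects it from nuclease. The protected fragments are sequenced, and the count for a transcript follows the number of ribosomes on all its copies. Heat unfolds proteins, and heated cells activate the transcription factor HSF1, make chaperones that refold or hold other proteins, and start translation of most other mRNAs less often. Polysomes, which are mRNAs loaded with several ribosomes, become fewer under strong heat shock. Fragments of translated mRNA lie on the transcript's own strand, called the sense strand here. Levels of mRNA were not analysed, so fewer ribosomes per mRNA copy and fewer copies cannot be told apart.

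Each table lists 61396 transcript IDs with counts from either strand, the sense strand and the antisense strand. The IDs are not paired with gene symbols in the sources used here. Chaperones, ribosomal protein genes and stem cell markers could therefore not be picked out, and the cell type was not checked against markers. Library reads numbered 1434691 and 1956756 in WT noHS replicates 1 and 2 and 2084034 and 889066 in WT HS replicates 1 and 2. Most reads were in no transcript, mapped to several places or were unmapped. Reads assigned to a transcript from either strand made up 3.70% and 5.69% of the WT noHS libraries and 8.75% and 2.20% of the WT HS libraries. The transcripts uc009vev.1, uc009vew.1, uc012hdk.1 and uc008spx.1 held 63.4% and 66.8% of these in WT noHS, against 88.9% and 52.7% in WT HS. They held 85.1% to 97.0% of the sense counts in the 4 libraries. Outside them the sense counts were 13196 and 33019 in WT noHS, against 12783 and 5090 in WT HS. A count of 0 in a library allows a true count of up to 3, which is 0.00909% to 0.0589% of those totals.

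The sense counts of the 4 abundant transcripts differed more between the WT HS replicates than between the groups, except those of uc012hdk.1. The sense counts of uc009vev.1 were 21870 and 30418 per 1000000 library reads in WT noHS, against 72300 and 10776 in WT HS. WT HS replicate 1 was the highest of the 4 libraries and replicate 2 the lowest. The sense counts of uc009vew.1 were ordered the same way, at 38134 and 56494 in WT noHS, against 125299 and 20861 in WT HS per 1000000 reads. The transcript uc008spx.1 had 792 and 2443 in WT noHS, against 2539 and 456 in WT HS on that scale, so its groups overlapped. The sense counts of uc012hdk.1 were 1322 and 17626 per 1000000 reads in WT noHS, against 388 and 631 in WT HS. These groups did not overlap, but the adjusted p was 0.0741 by edgeR's quasi-likelihood test with Benjamini-Hochberg adjustment. In WT noHS these were 1897 and 34489 counts, nearly equal to the 1905 and 34549 antisense counts of uc009vew.1. Either-strand counts of uc012hdk.1 were 392 and 412 per 1000000 reads in WT noHS, against 2666 and 206 in WT HS, which overlapped. None of the 4 passed an adjusted p of 0.05 with either column or scaling, where edgeR's adjusted p ran from 0.0741 to 0.973. Their swing between replicates is why the transcripts below are scaled both to library reads and to the counts outside these 4.

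Outside those 4 transcripts, sense counts were lower after heat shock and antisense counts were at a like level in both groups. Sense counts were 9198 and 16874 per 1000000 library reads in WT noHS, against 6134 and 5725 in WT HS, so that both heated libraries lay below both unheated ones. The means were 13036 ± 5428 and 5929 ± 289 (SD, n = 2 each), a difference of −7107. Antisense counts were 5496 and 4799 per 1000000 reads in WT noHS, against 4644 and 5623 in WT HS. These groups overlapped, and their means differed by −14.1. With 6 ways to split 4 libraries into pairs, the exact two-sided permutation test cannot go below p = 0.333, which is the value for every measure whose groups did not overlap. Reads that fell on overlapping transcripts, which the counting set aside as ambiguous, gave a second view of the same libraries. On the sense strand they were 9893 and 15218 per 1000000 reads in WT noHS, against 5480 and 4623 in WT HS. On the antisense strand they were 7650 and 5386 in WT noHS, against 3551 and 4726 in WT HS, so this class was lower on both strands in the heated libraries.

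**Figure D1:**
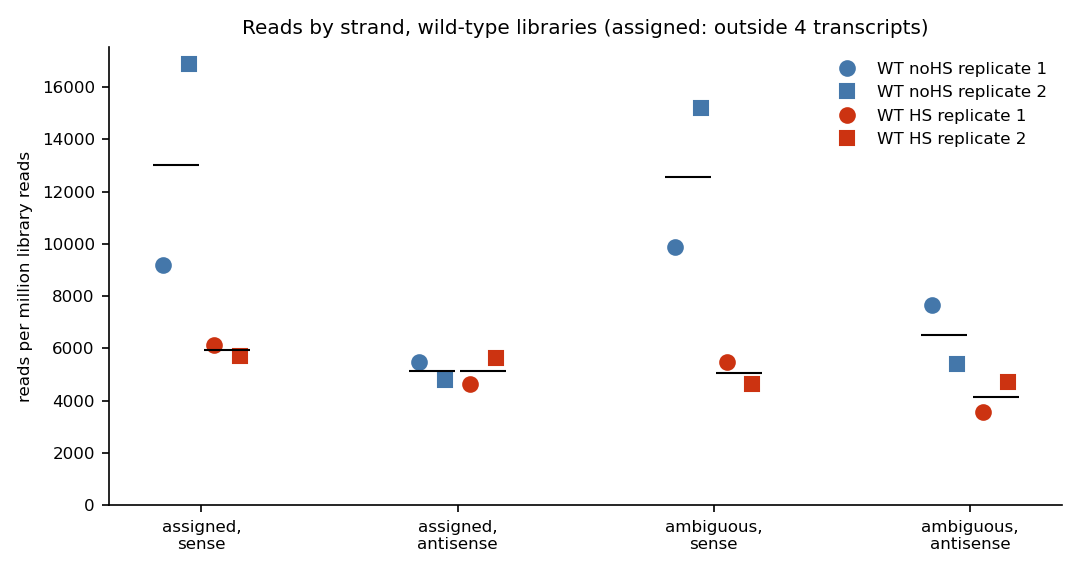
Reads per 1000000 library reads by strand in the 4 wild-type libraries, for reads assigned outside 4 transcripts and for ambiguous reads; points are libraries and bars are group means. The heated libraries lie at 6134 and 5725 for assigned sense reads, below the unheated 9198 and 16874, while the assigned antisense reads overlap between groups.

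The share of sense reads among stranded counts outside the 4 transcripts followed from this. It was 62.6% (95% Wilson interval 61.9% to 63.2%) and 77.9% (77.5% to 78.2%) in WT noHS replicates 1 and 2. In WT HS it was 56.9% (56.3% to 57.6%) and 50.5% (49.5% to 51.4%). Intervals here and below reflect counting error alone. They treat each read as a separate molecule, so copies of 1 amplified fragment would make them too narrow. The mean difference was −16.5 percentage points, and it was −8.92 without WT noHS replicate 2, the library with the highest share. Among ambiguous reads the sense share was 56.4% and 73.9% in WT noHS, against 60.7% and 49.4% in WT HS, where the groups overlapped. With the 4 transcripts kept in, the shares were 61.0% and 59.6% in WT noHS, against 60.9% and 58.4% in WT HS, a difference of −0.71 points. These shares rest on nearly equal counts of uc009vew.1 on the sense strand and uc012hdk.1 on the antisense strand, which numbered 54711 and 55190 in the first unheated library and 261127 and 266346 in the first heated one. Sense plus antisense counts, 167716 in WT noHS replicate 1, also exceed the 53017 either-strand counts there, so some reads enter both sides of this share. Outside the 4 they were 21081 and 42410 in WT noHS, against 19430 and 36987 either-strand counts. In WT HS they were 22462 and 10089, against 20289 and 9232. Some reads thus enter both sides of the share outside the 4 too, which its intervals do not allow for.

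Single transcripts kept their strand, and the difference in share lay mostly in which transcripts made up the counts. The pooled sense share outside the 4 transcripts went from 72.8% in WT noHS to 54.9% in WT HS. Of this difference of −17.9 percentage points, −2.12 came from changes within transcripts and −15.8 from the weight of transcripts in the total. Only 2863 of the 8812 transcripts had stranded counts in both groups, and the other 5949 can add to the second term alone. At least 20 stranded counts in each group were found for 150 transcripts. Of these, 141 (94.0%) had sense shares within 10 percentage points of each other in WT noHS and WT HS. All 85 with a sense share of 80% or more in WT noHS kept one, all 55 at 20% or less stayed there, and none of the 150 moved from one side to the other.

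Transcripts were then classed by strand with the 8 libraries outside the comparison, so that the class did not use the libraries compared. Apart from the unheated knockout libraries, these 8 came from heated cells, and wild-type cells in recovery after heat were among them. With at least 30 stranded counts there, 377 transcripts outside the 4 were sense-strand (at least 80% sense), 144 were antisense-strand (at most 20%) and 40 were mixed. The remaining 60831 IDs had fewer counts in those libraries or none. Sense-strand transcripts received 4553 and 8441 either-strand counts per 1000000 reads in WT noHS, against 4024 and 3633 in WT HS, which did not overlap. Antisense-strand transcripts received 3479 and 2053 in WT noHS, against 3194 and 3839 in WT HS, which overlapped. Transcripts with few counts elsewhere received 5138 and 7868 in WT noHS, against 2199 and 2774 in WT HS, the largest difference in means of any class. A transcript lost on heating can fall below 30 stranded counts in the mostly heated class libraries. The fall of this class is therefore not independent of how it was set. As a share of the counts outside the 4, these many low transcripts went from 37.9% and 41.6% in WT noHS to 22.6% and 26.7% in WT HS. The antisense-strand share went from 25.7% and 10.9% to 32.8% and 37.0%.

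The counts of heated cells were spread over fewer transcripts. At an equal depth of 9000 either-strand counts outside the 4, 2661 and 2673 transcripts were detected in WT noHS, against 1966 and 2022 in WT HS. The replicates of a group were close here, and the means differed by −673, from 2667 ± 8.52 to 1994 ± 39.0 (SD, n = 2 each). At 5000 sense counts the numbers were 1862 and 1803 in WT noHS, against 1321 and 1251 in WT HS. Ranked by sense count within a library, the first 194 and 174 transcripts held 50% of the counts in WT noHS, against the first 33 and 29 in WT HS. The 10 largest held 16.4% and 20.3% of sense counts in WT noHS, against 33.9% and 39.5% in WT HS. In WT HS replicate 2 a single transcript held 14.9%, against 5.52% for the largest in replicate 1.

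**Figure D2:**
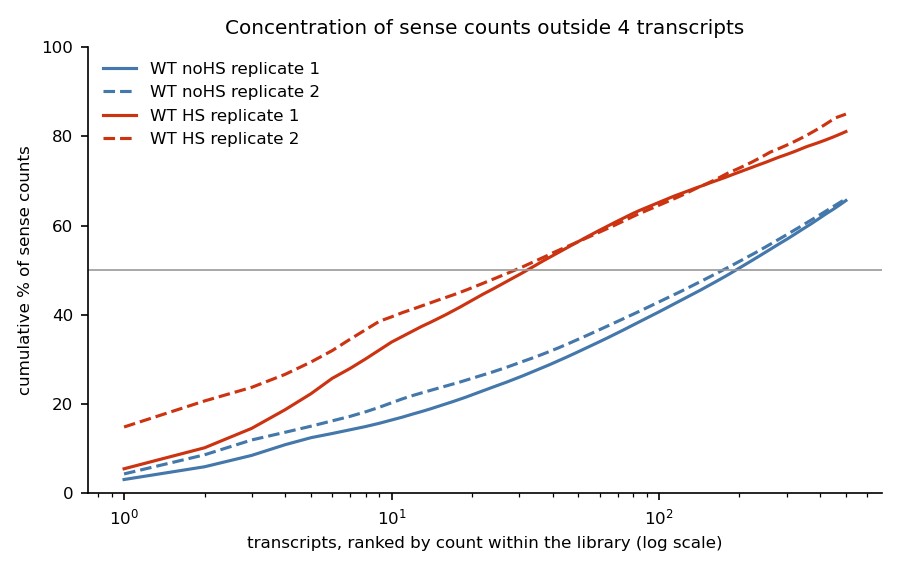
Cumulative percent of sense counts outside 4 transcripts (vertical axis) against the rank of transcripts by count within each wild-type library (log scale). The line at 50% is crossed after 194 and 174 transcripts in the unheated libraries and after 33 and 29 in the heated ones.

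Transcripts with counts in unheated cells and 0 in heated ones outnumbered the reverse, but the unheated libraries had the greater pooled depth. With both libraries of a group pooled, 365 transcripts had at least 20 sense counts in WT noHS, and 91 of them (24.9%) had 0 in WT HS. From 20 counts, the pooled totals outside the 4 would give 7.73 in WT HS and the library reads would give 17.5. In the other direction, 105 transcripts had at least 20 sense counts in WT HS, and 0 of them were at 0 in WT noHS. The largest WT noHS count of a transcript at 0 in WT HS was 192, and the largest WT HS count of one at 0 in WT noHS was 14. The pooled depths were unequal, with 46215 sense counts outside the 4 in WT noHS and 17873 in WT HS, a ratio of 2.59. By these totals, a transcript with 20 counts in WT HS would have more than 20 in WT noHS. Depth alone thus makes a 0 there unlikely. Each set was also picked by high counts in the group it starts from. The contrast of 91 with 0 therefore does not show that losses on heating outnumber gains. Over all transcripts with any sense count, 1958 were seen in both groups, 3801 in WT noHS alone and 1187 in WT HS alone. The greater depth of WT noHS also raises the number seen there alone.

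The test of single transcripts used edgeR's quasi-likelihood test on the 4 libraries, with an adjusted p below 0.05 as the threshold. On sense counts scaled to the sense counts outside the 4, 194 transcripts had enough counts to be tested. Of these, 56 (28.9%) were lower in WT HS and 11 (5.67%) were higher. With DESeq2's size factors in edgeR the split was 66 lower and 2 higher. The median pooled log2 ratio of all 194 was 0.15, and that of the 56 lower ones was −3.69, a 12.9-fold difference, with transcripts at 0 in WT HS set to 3 counts. The 56 had a median of 67 pooled counts in WT noHS and of 1 in WT HS, and 18 of them had 0 in WT HS. Their summed share of sense counts outside the 4 was 10.5% and 11.0% in WT noHS, against 0.524% and 0.432% in WT HS. The 11 higher ones held 0.955% and 0.921% in WT noHS, against 5.13% and 21.2% in WT HS, and 1 transcript in each heated library carried most of that. One had 459 of the 656 counts of this group in WT HS replicate 1, and another had 757 of the 1079 in replicate 2. The latter had 77 and 138 in WT noHS and 54 in WT HS replicate 1, so its groups overlapped. These sums describe transcripts picked by the same counts. Without any 1 of the 4 libraries, edgeR called 0 with 1 residual degree of freedom, where the lone library of a group is assumed to vary like the pair. There were 31 and 32 transcripts at an unadjusted p below 0.05 without WT noHS replicate 1 or 2, and 102 and 119 without WT HS replicate 1 or 2. The fitted difference of uc009ajk.1, named below for its large fall, was −5.37 to −9.85 on the log2 scale over these fits. That of uc033gjx.1, named below among those that rose, ran from 1.34 without WT HS replicate 2 to 6.15 without WT HS replicate 1. It was 5.17 with all 4 libraries.

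Scaled to library reads, the same sense column gave 254 tested transcripts, of which 127 (50%) were lower in WT HS and 1 (0.394%) was higher by edgeR's adjusted p. Each pooled sense ratio is lower by 1.18 on the log2 scale here than with the other scaling, since sense counts outside the 4 made up less of the heated libraries. The median pooled log2 ratio of the 254 was −2.46, and that of the 127 lower ones was −4.10, with 39 of them at 0 in WT HS. The 127 received 1677 and 2899 sense counts per 1000000 reads in WT noHS, against 91.6 and 68.6 in WT HS. With either-strand counts scaled to library reads, 131 of 329 (39.8%) were lower and 2 (0.608%) higher. Scaled to the counts outside the 4, 77 of 289 either-strand transcripts (26.6%) were lower and 3 (1.04%) higher. Lower calls outnumbered higher ones with both columns and both scalings. Without WT noHS replicate 1 or 2, edgeR called 46 and 7 either-strand transcripts per library read, against 15 and 7 scaled to the counts outside the 4. Per library read it called 71 without WT HS replicate 2 and 0 without WT HS replicate 1, where 147 had an unadjusted p below 0.05. With sense counts scaled to library reads, edgeR called 21 without WT noHS replicate 1, 72 without WT HS replicate 2, and 0 without WT noHS replicate 2 or WT HS replicate 1, where 34 and 148 had an unadjusted p below 0.05.

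The filter on low counts shapes these shares. Of the 194 sense transcripts scaled to counts outside the 4, 51 reached the minimum in both libraries of each group. Another 76 reached it in both WT noHS libraries but not in both WT HS ones, 46 in both WT HS libraries but not in both WT noHS ones, and 21 in 1 library of each group. Entry through 1 group favours transcripts that are higher there. Ratios were spread widely. Of the 194, 47 had a pooled log2 ratio below −3, 30 lay between −3 and −1, 47 between −1 and 1, and 70 above 1. Scaled to library reads, the same bins held 117, 42, 74 and 21 of the 254. Entry was more one-sided there, with 155 of the 254 reaching the minimum in both WT noHS libraries but not in both WT HS ones, 16 the other way round and 56 in both groups, so the 127 lower calls against 1 higher are read beside that.

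**Figure D3:**
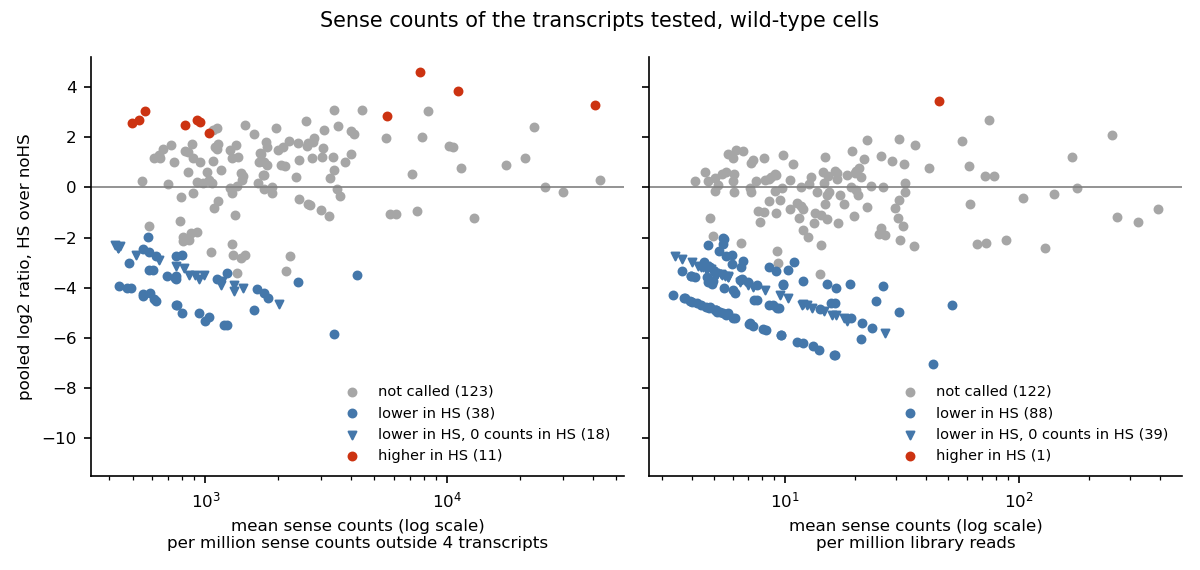
Pooled log2 ratio of sense counts, WT HS over WT noHS, against the mean scaled sense count over the 4 libraries (log scale), with each scaling; colours mark edgeR calls at an adjusted p below 0.05, triangles are transcripts at 0 in WT HS set to 3 counts, and the 4 abundant transcripts are not drawn. Lower calls gather at low levels, and 11 higher calls with 1 scaling become 1 with the other.

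Lower calls were most frequent among transcripts of low level. When the 194 sense transcripts were ordered by their mean over the 4 libraries and cut into 3 groups of near-equal size, 36 of the 65 lowest, 16 of the 64 in the middle and 4 of the 65 highest were lower in WT HS. Their median pooled log2 ratios were −2.40, 0.17 and 1.18. Scaled to library reads, the corresponding counts were 68 of 85, 39 of 84 and 20 of 85, and the medians −3.35, −2.40 and −0.50. The ratio thus lay higher at higher levels with both scalings, and a low mean goes with entry through 1 group at the filter.

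By strand class, lower calls among sense-strand transcripts were near their share among all tested, and few antisense-strand transcripts were called. With either-strand counts scaled to the counts outside the 4, 59 of 182 sense-strand transcripts (32.4%, against 26.6% of all) were lower and 2 higher, and the class median of the pooled log2 ratio was −0.66 (quartiles −3.43 and 0.90). Of 72 antisense-strand transcripts, 0 were lower and 1 was higher by edgeR's adjusted p, with 2 lower and 6 higher at an unadjusted p below 0.05. Their median was 1.23 (quartiles 0.69 and 1.62). Scaled to library reads, 86 of 201 sense-strand transcripts (42.8%, against 39.8% of all) were lower and 1 higher, with a median of −1.50, and 3 of 75 antisense-strand transcripts were lower and 1 higher, with a median of 0.39. The transcripts with few counts elsewhere numbered 24 and 43 among those tested with these scalings, and 22 and 42 of them reached the filter's minimum in both WT noHS libraries only, so their 18 and 40 lower calls follow largely from how they were admitted. Of the 72 antisense-strand transcripts, 26 reached the minimum in both WT HS libraries only and 4 in both WT noHS libraries only. For the 182 sense-strand ones these numbers were 20 and 90. Per library read they were 14 and 10 of 75 antisense-strand and 12 and 111 of 201 sense-strand transcripts. Entry through the group where a transcript is higher thus shapes the medians and calls of both classes. The direction of the antisense-strand median was the same with both scalings, and its size was not.

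**Figure D4:**
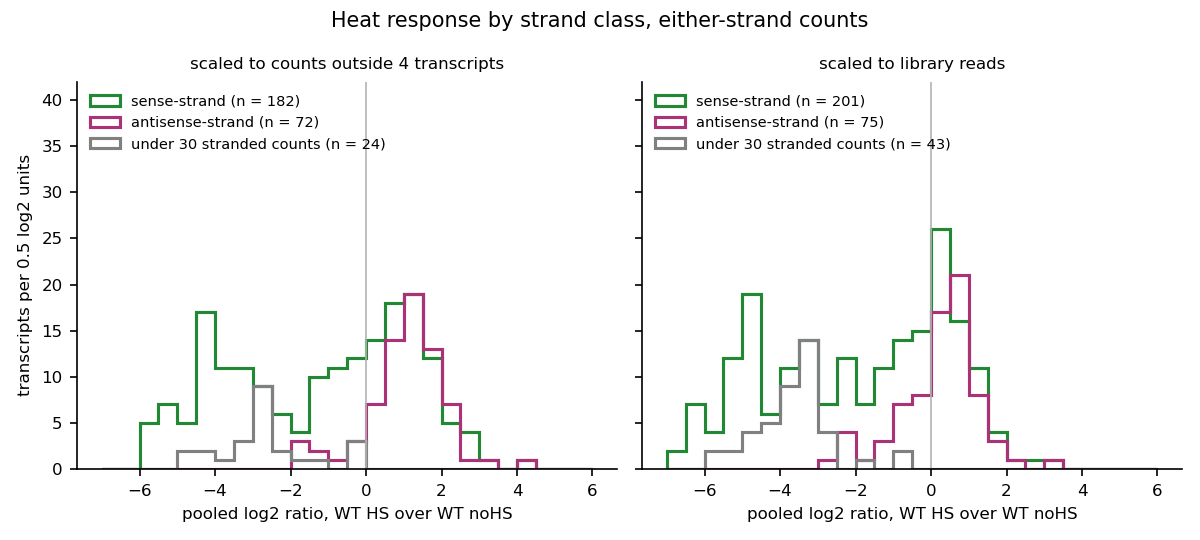
Number of transcripts per 0.5 log2 units of the pooled either-strand ratio, WT HS over WT noHS, by strand class set in the 8 other libraries, with each scaling. Sense-strand transcripts spread from near −6 to above 2 with a group near −4, while antisense-strand transcripts gather around medians of 1.23 and 0.39.

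Among transcripts that fell with both columns and whose groups did not overlap under either scaling, 18 of 54 had 0 sense counts in WT HS. Their falls are known only as lower bounds, the highest being at least 24.8-fold against the counts outside the 4, and cannot be ranked against the others. The rule for naming sets them to that bound, which places transcripts with a few heated counts first, and it gave uc009ajk.1 and uc007zul.1. The transcript uc009ajk.1 had 96 and 204 sense counts in WT noHS, against 2 and 0 in WT HS, or 66.9 and 104 against 0.960 and 0 per 1000000 library reads. Both unheated libraries stood far above both heated ones. The pooled ratio was 131-fold per library read (95% counting interval 36.1 to 1091) and 58.0-fold against the sense counts outside the 4 (15.9 to 481). The log2 fold change by edgeR was −5.94 (SE 1.70, adjusted p = 0.00266) with the latter scaling. Both of its heated counts came from WT HS replicate 1. Without that library the fall was at least 26.2-fold per library read and at least 11.0-fold against the counts outside the 4, with a floor of 3 counts over the group.

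The transcript uc007zul.1 had 28 and 89 sense counts in WT noHS, against 1 and 0 in WT HS. Per 1000000 library reads these were 19.5 and 45.5 against 0.480 and 0, without overlap. The pooled ratio was 103-fold (95% counting interval 18.1 to 4085), and 45.2-fold (7.96 to 1802) against the counts outside the 4, where edgeR's adjusted p was 0.00343. Without WT HS replicate 1, which held its only heated count, the bounds were at least 10.2-fold and at least 4.30-fold. The rule for named transcripts was met by 54 transcripts that fell and by 2 that rose. Of all 194 sense transcripts tested with the scaling outside the 4, 75 (38.7%) were lower in WT HS without overlap and 48 (24.7%) higher. Per library read these were 155 (61.0%) and 16 (6.30%) of 254. The rule asks for no overlap with both scalings, so the scaling to library reads limits the number that rose.

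Of those that rose, uc033gjx.1 had 7 and 10 sense counts in WT noHS, against 13 and 148 in WT HS. Per 1000000 library reads the values were 4.88 and 5.11 against 6.24 and 166, so that only WT HS replicate 2 was far above the unheated libraries. The pooled ratio was 10.8-fold (95% counting interval 6.54 to 19.0) per library read and 24.5-fold (14.8 to 43.1) against the counts outside the 4. Without WT HS replicate 2 these were 1.24-fold (0.556 to 2.72) and 2.76-fold (1.23 to 6.04). It was called with both columns and both scalings, with edgeR's adjusted p from 0.00282 to 0.0295.

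The other, uc007ejw.1, had 3 and 8 sense counts in WT noHS, against 16 and 8 in WT HS. Per 1000000 library reads the means were 3.09 ± 1.41 and 8.34 ± 0.934 (SD, n = 2 each). Both heated libraries lay above both unheated ones. Against the counts outside the 4 it was 5.64-fold higher (95% counting interval 2.66 to 12.8; log2 fold change 2.52, adjusted p = 0.00737 by edgeR). Per library read the ratio was 2.49-fold (1.17 to 5.63), and the call was lost, with an adjusted p of 0.210 by edgeR. Outside the 4, the sense call was also lost without a filter, with all 12 libraries, with DESeq2's size factors and with the replicate block. It was kept with at least 20 counts in total, with TMM and by DESeq2's Wald test. With either-strand counts edgeR's adjusted p was 0.0472, and the call was lost with each other filter and normalization tried.

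**Figure D5:**
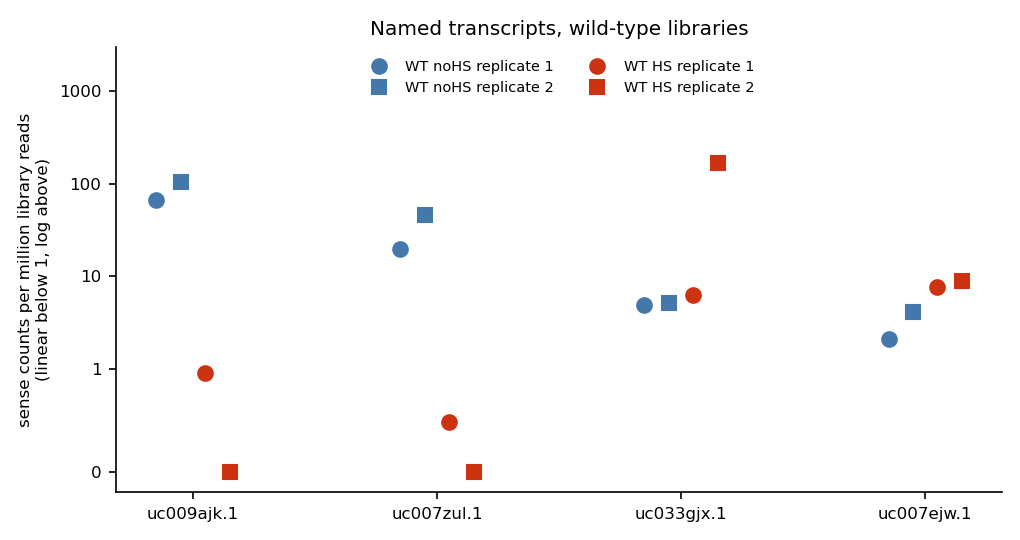
Sense counts per 1000000 library reads of the 4 named transcripts in each wild-type library (linear below 1, log above). Values of uc009ajk.1 and uc007zul.1 are at 0.960 or less in both heated libraries, and the rise of uc033gjx.1 lies in WT HS replicate 2.

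Heat shock of Mettl14 -/- cells, which lack a subunit of the enzyme complex that methylates adenosines in mRNA, was profiled in 4 other libraries (2 unheated, 2 heated in the same way). No library is shared with the wild-type comparison. In a fit of the 8 libraries, 0 of 242 transcripts (0%) differed between the genotypes in their response of sense counts outside the 4 by edgeR's adjusted p, with 30 at an unadjusted p below 0.05. Scaled to library reads it was 0 of 375, with 33 at an unadjusted p below 0.05. This does not show that the responses were alike. In the same fits, edgeR's adjusted p called 0 of 375 transcripts for the knockout response per library read, against 164 for the wild type. With sense counts scaled outside the 4 it called 3 of 242 for the knockout and 58 for the wild type. Of the 127 transcripts that fell in the wild type per library read, 115 had at least 10 sense counts in the knockout libraries, and all 115 had a pooled ratio below 0 on the log2 scale there, against 70 of the 126 transcripts not called. The median knockout ratio of the 115 was −2.37, where the wild-type median was −4.08. On this scale sense counts outside the 4 as a whole were also lower in heated knockout libraries, at 6460 and 4316 against 11354 and 15293 unheated. Scaled to the counts outside the 4, 52 of 54 transcripts that fell in the wild type were below 0 in the knockout, against 48 of 127 not called. Their median ratios were −1.50 in the knockout and −3.76 in the wild type. The knockout libraries took no part in picking these transcripts, whereas the wild-type libraries did. Picking by low wild-type ratios pushes the wild-type medians down. The gap between wild-type and knockout medians therefore does not measure a difference between genotypes. The transcripts uc009ajk.1 and uc007zul.1 had 66 and 33, and 23 and 7, sense counts in unheated knockout cells. After heat they had 17 and 1, and 0 and 0. For uc033gjx.1 the counts were 5 and 14 unheated and 9 and 0 heated, and for uc007ejw.1 they were 15 and 17 unheated and 20 and 5 heated.

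The sense share outside the 4 transcripts was also lower in heated knockout cells, at 52.6% and 44.9% against 69.3% and 68.4%. The concentration of the counts did not separate the knockout groups. The first 87 and 12 transcripts held 50% of sense counts in unheated knockout libraries, and the first 33 and 40 did so in heated ones. Whether the change in concentration differs between genotypes was not tested.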

How the data were processed

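Ribosome-protected fragments were sequenced in 12 libraries, of which the 4 wild-type unheated and heated ones are compared. The authors deposited raw counts per transcript for either strand, the sense strand and the antisense strand, per the file layout. STAR, DESeq2 and the mouse build mm10 are named in the submitters' processing notes without version or role, and the sources used here give no settings for trimming, alignment or annotation. The strand setting of the libraries is not stated in the labels, and the first stranded column is taken as sense. The 4 summary classes of each file (unmapped, mapped to several places, in no transcript, ambiguous), 91.2% to 97.8% of reads for either-strand counts, stayed out of tests and entered only the total of library reads.

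Groups and replicate numbers come from the sample titles. Counts were tested with edgeR 4.0.16 in R 4.3.3 (quasi-likelihood, 1 coefficient per group, 2 residual degrees of freedom, filterByExpr with a minimum count of 10), scaled to the column's counts outside 4 abundant transcripts or to library reads, with normalization factors of 1. The test was tried on simulated data first. DESeq2 1.42.0 served for alternatives, and shares and detection were computed in Python 3.11.15. P-values were adjusted by the Benjamini-Hochberg method across every transcript tested. The spread was pooled fully over transcripts in each setting other than either-strand counts scaled outside the 4. The biological coefficient of variation was 61.2% to 65.9%.

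Transcripts were named, at most 2 per direction, by an adjusted p below 0.05 with both columns scaled outside the 4, no overlap of groups in either column and scaling, at least 10 sense counts on average in the higher group, and the largest pooled sense ratio. Pooled ratios sum the libraries of a group, with a group at 0 set to 3 counts. The members, classes and rules were chosen with earlier results of these data known. A RefSeq table of mouse genes held 0 of the 61396 IDs. Gene lists (chaperones, ribosomal proteins, translation factors, histones, mitochondrially encoded genes) and markers of pluripotent cells and feeders were therefore not analysed here, and no sequence is printed. Alternatives were TMM, DESeq2's size factors and Wald test, other filters, all 12 libraries in the fit, the replicate number as a block, leaving out each library, other depths, columns and class thresholds.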

Additional observations from a re-analysis of the deposited data

How the results depend on the processing

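With sense counts scaled outside the 4 transcripts, 67 transcripts were called by edgeR. The number was 39 without a filter on low counts, 152 with at least 20 counts in total, 30 with all 12 libraries in the fit, and 0 without any 1 library. For either-strand counts on that scaling, 80 became 34, 126 and 53 under the same settings, and 7 to 83 with 1 library left out. For either-strand counts scaled to library reads, 133 became 79 without a filter, 11 with all 12 libraries, and 0 to 71 with 1 library left out. For sense counts scaled to library reads, 128 became 55, 76, and 0 to 72. DESeq2's size factors in edgeR split the sense calls as 66 lower and 2 higher, against 56 and 11, and its Wald test as 44 and 14.

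With the replicate number as a block (replicate block), edgeR called 0 either-strand transcripts (66 at an unadjusted p below 0.05) and 0 sense transcripts (41) scaled outside the 4, and 0 either-strand (87) and 14 sense transcripts scaled to library reads. Same-numbered libraries deviated in opposite directions (r = −0.30 over the transcripts of each fit), and nothing in the labels says that the numbers mark shared cultures. A block with the numbers crossed, chosen after seeing the data, gave 76, 64, 133 and 116 calls in the order either-strand and sense outside the 4, then either-strand and sense per library read.

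The difference in sense share was −0.71 percentage points with no transcript left out, against −16.5, and ran from −24.2 to −8.92 with 1 library left out. The difference in detected transcripts was −493 at 4500 counts and −547 for sense counts at 5000, against −673. The difference in the share of the 10 largest was 18.4 points for sense counts, against 12.6 for either strand. No alternative reversed the sign of a library measure or of a named transcript, while numbers of calls could only stay or move. The sign of the median over all transcripts tested, which lies near 0 outside the 4, followed the scaling and the filter. Among numbers of calls and library measures, 28 alternatives, crossed block included, kept the value and 32 moved it. Among the values of named transcripts, strand classes and medians, 119 alternatives, crossed block included, kept the call or the value, 74 ended a call and 23 moved it. Depth limits the fall of single transcripts: a heated count of 0 to 2 sets only a wide range for its size.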
